A study of Mus musculus with 18 samples.

Results

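Cytochrome P450 genes were selected as the rows whose name reads Cyp, a family number, subfamily letters and a gene number, which gave 94 of the 52636 genes listed for every library. Bulk RNA-seq covered 18 mouse colon libraries, 12 of isolated crypts and 6 of sorted epithelial cells. The comparisons address what changes when Olfr78, a short-chain fatty acid receptor of enteroendocrine cells, is lost in the whole body or in the epithelium. Crypts of the Olfr78-GFP line came from 2 WT mice and 5 homozygous Olfr78 KO mice, in which GFP replaces the receptor's coding exon in every tissue. Sorted cells of that line were Epcam+ve/GFP-ve cells, taken as 2 samples from 1 WT mouse, and Epcam+ve/GFP+ve cells, pooled from heterozygous (HE) mice in 2 pools and from homozygous (KO) mice in another 2. The HE pools, which serve as the control for the KO pools, thus carry 1 GFP allele themselves. Crypts of the floxed line, in which the Vil1 promoter drives Cre in gut epithelium and the receptor remains in other tissues, came from 3 eControl and 2 eKO mice. Animals were adult, and no age is given per library. The labels give the genotype HE/WT to eControl mice 1 and 3 and HE/HO to eKO mouse 1. They give WT/HO both to eControl mouse 2 and to the library labelled eKO mouse 2, so results of the floxed line are also given without the latter. In the paper, eKO mice carry Cre and 2 floxed alleles, while controls lack either Cre or the floxed alleles. If the labels put Cre first, HE/WT is Cre alone and WT/HO is floxed without Cre, a control genotype.

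Values are CP20M, reads scaled to 20000000 per library, and 20 CP20M equal 1 CPM, the usual scale of counts per library. Crypt libraries held 6175301 to 10995300 reads assigned to genes, and 1 read there equals 1.82 to 3.24 CP20M. Sorted libraries held 1499832 to 2237474 reads except KO pool 1, with 532702 reads and 37.5 CP20M per read. KO crypt mouse 1 stood apart in having reads on 37713 genes, against 24929 to 33385 in the other crypts. Olfr78 itself stood at 88 and 111 CP20M in WT crypts and at 7 to 42 in KO crypts. HE pools had 4822 and 4401, KO pools 977 and 837. In the floxed line it was at 61 to 124 in eControl crypts, at 21 in eKO mouse 1 and at 73, inside the eControl range, in the library labelled eKO mouse 2. The 6 enteroendocrine markers (Chga, Chgb, Tph1, Neurod1, Insm1, Cpe) summed to 857115 and 1114098 CP20M in HE pools against 12669 to 13034 in GFP-ve samples, which the labels also call enteroendocrine. Nothing in the labels says that crypt mice shared a litter, and p-values of the sorted comparisons measure the spread between samples of 1 mouse or between pools.

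Cytochrome P450 enzymes hold a heme iron with which they insert oxygen into fatty acids, steroids, vitamins, drugs and dietary compounds. Most sit in the endoplasmic reticulum and draw electrons from NADPH through the reductase Por, with help from cytochrome b5, while a few mitochondrial members use ferredoxin instead. The CYP1 to CYP3 families are known mainly for oxidising foreign compounds and arachidonic acid, CYP4 for hydroxylating fatty acids and eicosanoids at the chain end, and the higher numbers for set steps of steroid, bile acid, vitamin D and retinoic acid metabolism. The gut epithelium is known as a site of P450 activity outside the liver.

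Promoter sequences were available for 73 of the 94 genes in the RefSeq table on GRCm38.p6, each running from 250 bases before to 50 bases after a start site. The 3 windows shown belong to the gene that supplied most P450 reads and to the pair with the lowest fitted p-values among those that fell in KO crypts. Capitals mark matches, on either strand, to 5 motifs that were searched: the TATA box TATAAA, the nuclear receptor core AGGTCA, the HNF1 core GTTAAT, the HNF4 core CAAAG and the xenobiotic response core GCGTG.
Cyp2c55, chr19:39006769-39007068, plus strand: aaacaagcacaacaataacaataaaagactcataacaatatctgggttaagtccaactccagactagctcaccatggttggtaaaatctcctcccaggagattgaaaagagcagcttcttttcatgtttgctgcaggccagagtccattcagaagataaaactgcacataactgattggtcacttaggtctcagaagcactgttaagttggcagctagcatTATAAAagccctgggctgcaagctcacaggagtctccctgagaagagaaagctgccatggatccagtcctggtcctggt
Cyp4b1, chr4:115647672-115647971, minus strand: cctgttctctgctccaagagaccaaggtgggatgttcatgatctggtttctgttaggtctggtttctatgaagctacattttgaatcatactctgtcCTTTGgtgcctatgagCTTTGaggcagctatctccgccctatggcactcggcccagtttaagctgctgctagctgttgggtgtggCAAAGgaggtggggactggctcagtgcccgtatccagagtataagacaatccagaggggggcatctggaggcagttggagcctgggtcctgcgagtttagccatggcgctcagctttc
Cyp2d26, chr15:82794196-82794495, minus strand: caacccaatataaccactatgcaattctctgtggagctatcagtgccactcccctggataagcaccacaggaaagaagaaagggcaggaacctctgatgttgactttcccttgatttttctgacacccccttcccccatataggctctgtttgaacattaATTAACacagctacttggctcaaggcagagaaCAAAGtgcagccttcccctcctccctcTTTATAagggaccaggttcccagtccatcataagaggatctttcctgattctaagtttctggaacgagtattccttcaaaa
Cyp2c55 held TATAAA starting 29 bases before its start site. Cyp4b1 held CAAAG once on its own strand, 68 bases before the start, and on the opposite strand at 153 and 137 bases before it. In Cyp2d26, CAAAG lay 58 bases before the start, with GTTAAT and TATAAA on the opposite strand at 90 and 31 bases before it. Neither AGGTCA nor GCGTG was found in these windows. TATAAA was present in 38.6% of the 83 P450 windows and in 13.6% of all 32851 windows of this length. For the other motifs, the corresponding shares were 85.5% and 53.9% for CAAAG, 26.5% and 16.3% for AGGTCA, 12% and 7.1% for GTTAAT, and 20.5% and 32.4% for GCGTG. A match describes the letters only and was not tested as a binding site.

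The colon epithelium used a minority of the P450 genes. Of the 94, 33 reached 40 CP20M (2 CPM) in at least 2 crypt libraries and 27 in all 12, whereas 57 reached it in no library and 25 never exceeded 3 reads. In the sorted cells 31 reached it in at least 2 libraries and 16 in all 6. By family, 19 of the 49 CYP2 genes, 3 of 7 CYP3 and 8 of 17 CYP4 reached that level in at least 2 crypts, with Cyp20a1, Cyp27a1 and Cyp39a1 as the remaining 3. None of the 3 CYP1 genes did, and Cyp1a1, the classical target of the aryl hydrocarbon receptor, did not exceed 6 CP20M in any crypt. None of the 3 Cyp26 genes, which break down retinoic acid, nor any gene of steroid hormone synthesis did either. For vitamin D, the breakdown gene Cyp24a1 did not exceed 9 CP20M in crypts and the activating gene Cyp27b1 did not exceed 14, while Cyp2r1, which begins activation, lay between 45 and 84. Among the larger subfamilies, 6 of the 8 Cyp2d genes, which form 1 cluster of 0.424 Mb on chromosome 15, and 6 of 9 Cyp4f genes reached 40 CP20M in at least 2 crypts, against 5 of 15 for Cyp2c, 2 of 8 for Cyp2j and 0 of 5 for Cyp4a. KO crypt mouse 1 had at least 1 read on 91 P450 genes, against 54 to 79 in the other crypts, but 30 reached 40 CP20M there, within the 30 to 32 of the others.

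Per length, Cyp2c55 was the most abundant P450 transcript of every group. This gene (chromosome 19, 39007019 to 39042693, GRCm38) encodes an arachidonic acid-oxidising enzyme of the Cyp2c cluster and stood at 1216 ± 313.5 CPM per kilobase of exon in control crypts (SD, n = 5). Control crypts here are the 2 WT and 3 eControl mice together, so each SD also holds any difference between the lines. Its neighbour Cyp2c65 followed at 140 ± 21.8. Next came Cyp3a13, the drug-oxidising CYP3 gene on chromosome 5, at 51.3 ± 7.38 and Cyp4f14, a leukotriene and fatty acid hydroxylase on chromosome 17, at 44.4 ± 9.58. Cyp2d34, Cyp2c68, Cyp2d26, Cyp4b1, Cyp4f40, Cyp2j6 and Cyp2s1 had means of 21.6 to 30.0 on the same scale, and with SDs of 2.15 to 16.2 the neighbours in that order did not differ beyond their spread. Cyp4b1, a fatty acid hydroxylase that also activates plant and chemical toxins, was one of the more variable of them, from 7.29 to 45.6. Both of these values were in eControl crypts, and the WT crypts stood at 28.5 and 30.8. Cyp2c68 shared 19.8% of its 100-base windows with other genes, Cyp2c40 most of all, so its reads are uncertain. Cyp2c55 shared none, and no P450 gene shared over 50% of its windows with other genes.

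P450 transcripts together made up 0.394% and 0.397% of all reads in the WT crypts and 0.263 to 0.363% in the KO crypts. The Epcam+ve/GFP-ve samples stood at 0.229% and 0.206%, and the HE pools lower at 0.098% and 0.0708%. KO pools differed from each other, at 0.0348% and 0.124%. Cyp2c55 alone supplied 55.0 to 72.1% of the P450 reads in crypts, 70.2 to 71.1% in GFP-ve samples and 59.2 to 60.3% in HE pools. In KO pool 1, where P450 genes had 185 reads in all, it supplied 22.7%, against 64.0% in KO pool 2. The eControl crypts ranged from 0.266 to 0.444%, a range that held both eKO values, 0.365% and 0.372%.

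**Figure D1:**
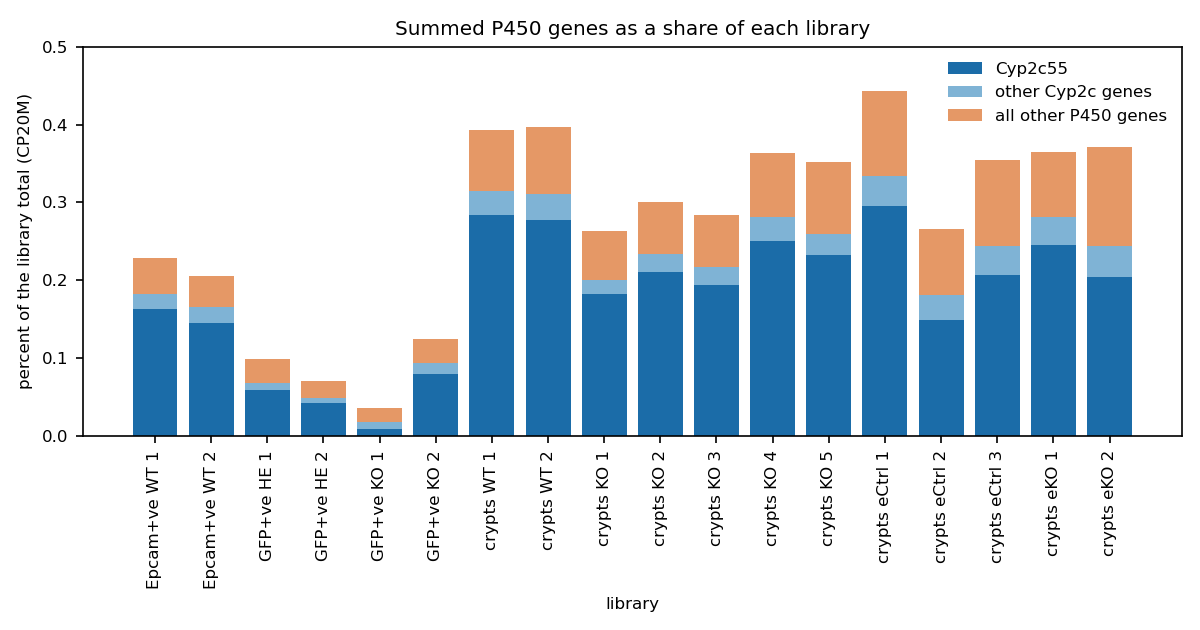
Stacked bars give, for each of the 18 libraries, the percent of all reads on Cyp2c55, on the other Cyp2c genes and on the remaining P450 genes. Bars of the 12 crypt libraries reach 0.263 to 0.444%, those of the 2 GFP-ve samples 0.206 to 0.229%, and those of the 4 GFP+ve pools 0.0348 to 0.124%, and Cyp2c55 is the largest piece in every bar but that of KO pool 1.

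**Figure D2:**
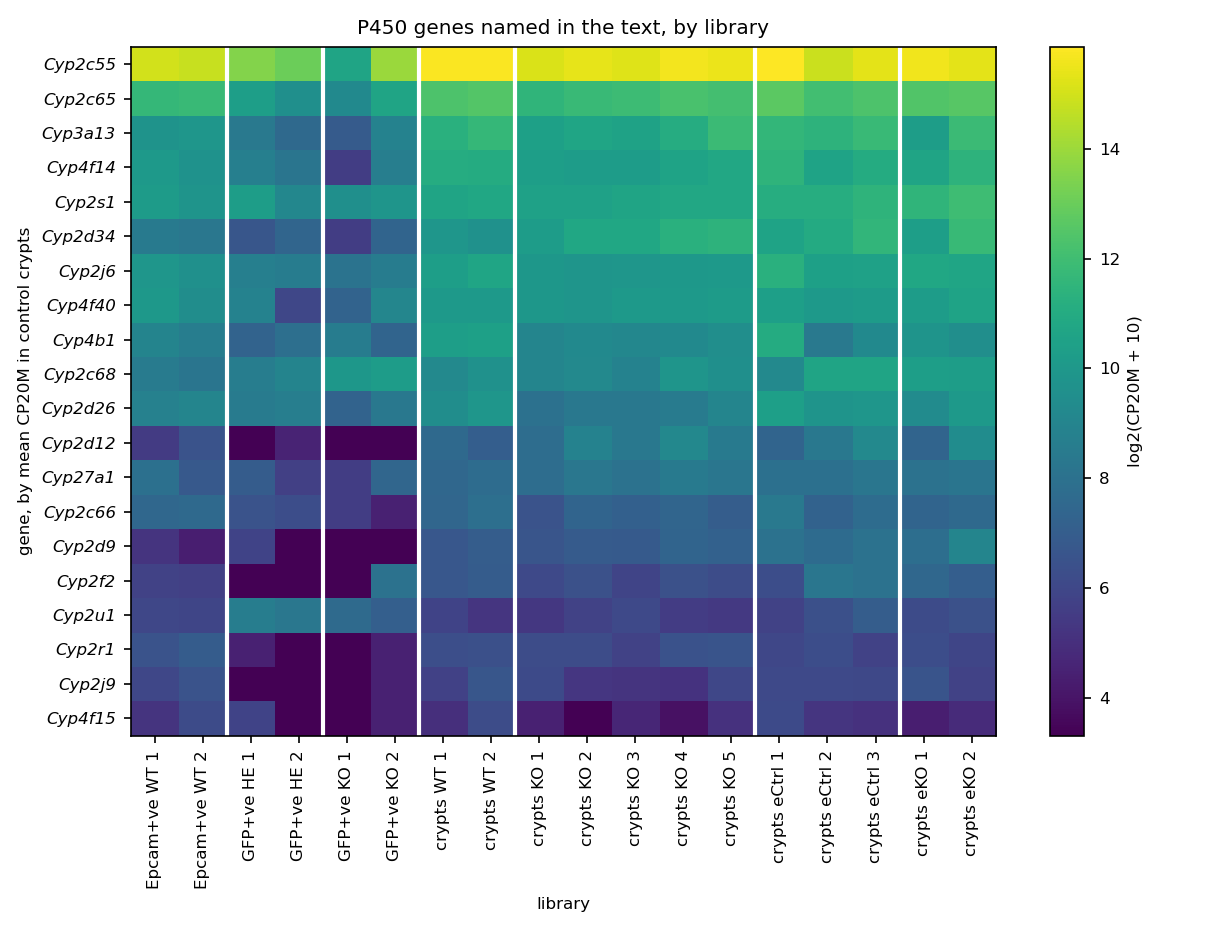
Heat map of the 20 named P450 genes (rows) over the 18 libraries (columns), coloured by log2(CP20M + 10). Cyp2c55 is high throughout, Cyp2u1 is high in the HE pools and low in crypts, and Cyp2j9, Cyp2r1 and Cyp2f2 are at or near 0 in the HE pools.

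Between Olfr78-GFP+ve HE cells and the GFP-ve epithelium, 8 of 30 P450 genes tested passed the test as lower in the GFP+ve cells, Cyp2c55 and Cyp2c65 among them, and 1, Cyp2u1, passed it as higher. Of the 30, 26 had a log2 fold change below 0 and 4 above 0, with a median of -1.11 against -0.05 over all 16355 genes tested. Both counts are at adjusted p < 0.05 by limma, by which 11.3% of all genes were lower and 12.5% higher. At the stricter rule of adjusted p < 0.001 and a change beyond 2 on the log2 scale, limma called 0 of the 30, against 0.171% of all genes lower and 1.58% higher. edgeR and DESeq2 on recovered reads also called 0 by that rule. An unadjusted p < 0.05 in limma was reached by 15 of the 30, and by 37.2% of all genes. Values of 18 genes were lower in both HE pools than in both GFP-ve samples, where 33.1% of all genes were, and those of 2 were higher, where 30.4% of all genes were.

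Among the arachidonic acid-oxidising CYP2 genes, Cyp2c55 stood at 32564 and 28878 CP20M in GFP-ve samples, against 11829 and 8388 in HE pools. Cyp2c65 (chromosome 19, 39061015 to 39093944) read 3281 and 3555 against 1289 and 734. Both HE pools lay below both GFP-ve samples for either gene. Cyp2c55 was 3.04-fold lower, from a mean of 30720 ± 2606 to 10110 ± 2433 (SD, n = 2 each), a log2 fold change of -1.62 ± 0.21 (SE) with a limma adjusted p of 0.00168. Cyp2c65 fell by 1.80 ± 0.27 on the log2 scale (limma adjusted p = 0.00303). The level of both thus lay at 3.04- and 3.38-fold below that of the GFP-ve cells, without being absent from the sorted cells. Cyp2j6, an epoxygenase of polyunsaturated fatty acids on chromosome 4, read 957 and 771 against 415 and 374. The groups did not overlap, and it fell by 1.11 ± 0.27 (limma adjusted p = 0.0217).

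Cyp3a13 (chromosome 5, 137892932 to 137921619) read 868 and 935 CP20M in GFP-ve samples and 323 and 187 in HE pools. Cyp4f14 (chromosome 17, 32905070 to 32917342) read 1055 and 833 against 415 and 281. Both genes were lower in each HE pool, Cyp3a13 by 1.83 ± 0.34 on the log2 scale and Cyp4f14 by 1.43 ± 0.31, with limma adjusted p of 0.00708 and 0.0125. In a fit of all 6 sorted libraries together, 2 of the 9 calls remained, those of Cyp2c65 and Cyp2u1.

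Cyp2u1 (chromosome 3, 131288441 to 131303227, minus strand), which hydroxylates long-chain fatty acids and is known from brain, went the other way. It read 54 and 52 CP20M in GFP-ve samples, against 392 and 307 in HE pools. The pools were thus 6.59-fold higher, a log2 fold change of 2.50 ± 0.48 with a limma adjusted p of 0.00811. The call held in all 14 alternatives, at adjusted p between 0.00131 and 0.0268. In crypts, where enteroendocrine cells are few, Cyp2u1 ranged from 28 to 119 CP20M, below both HE pools in all 12 libraries.

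The other genes called lower were near the detection limit in the HE pools. Cyp2r1 read 81 and 114 CP20M in GFP-ve samples and 12 and 0 in HE pools. Cyp2j9, whose enzyme oxidises arachidonic acid and is known from brain, read 54 and 83 against 0 in both. Cyp2f2, known for naphthalene oxidation in airway cells, read 45 and 42 against 0 in both. Set against a floor of 3 reads per library, Cyp2j9 was at least 1.84-fold lower and Cyp2f2 at least 1.17-fold lower. Their limma adjusted p were 0.0224 for Cyp2r1, 0.0169 for Cyp2j9 and 0.0355 for Cyp2f2, and DESeq2 called none of the 3.

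Cyp4b1 (chromosome 4, 115624725 to 115647723, minus strand) read 492 and 381 CP20M in GFP-ve samples and 150 and 227 in HE pools. The groups did not overlap, but the change of -1.19 ± 0.39 on the log2 scale had a limma adjusted p of 0.0599, and it passed 0.05 in 4 of 14 alternatives. The test separated the groups neither for Cyp2c68 nor for Cyp2s1, which is known from skin and airway and acts on retinoids. Cyp2c68 read 358 and 278 against 392 and 494 (+0.47, limma adjusted p = 0.353). Cyp2s1 read 1154 and 874 against 1232 and 547 (-0.29, limma adjusted p = 0.625).

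Of the 7 colonocyte markers (Car1, Car4, Slc26a3, Aqp8, Krt20, Ceacam1, Saa1), limma at adjusted p < 0.05 found 5 lower and 1, Krt20, higher in HE pools. Krt20, a keratin of mature surface cells, read 4434 and 3822 CP20M in GFP-ve samples and 24878 and 31364 in HE pools. The 7 summed to 132812 and 155436 CP20M in GFP-ve samples, against 75932 and 94427 in HE pools, with 0 of 7 at 0 in both pools. The 6 goblet markers, Muc2 and Tff3 among them, summed to 297569 and 348170 against 67182 and 148068. The 3 squamous markers (Krt5, Krt14, Krt6a) summed to 1275 and 1664, against 47 and 54 in HE pools. Their part in the P450 difference was not tested. In bulk samples fewer cells of a type and less RNA per cell cannot be told apart.

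**Figure D3:**
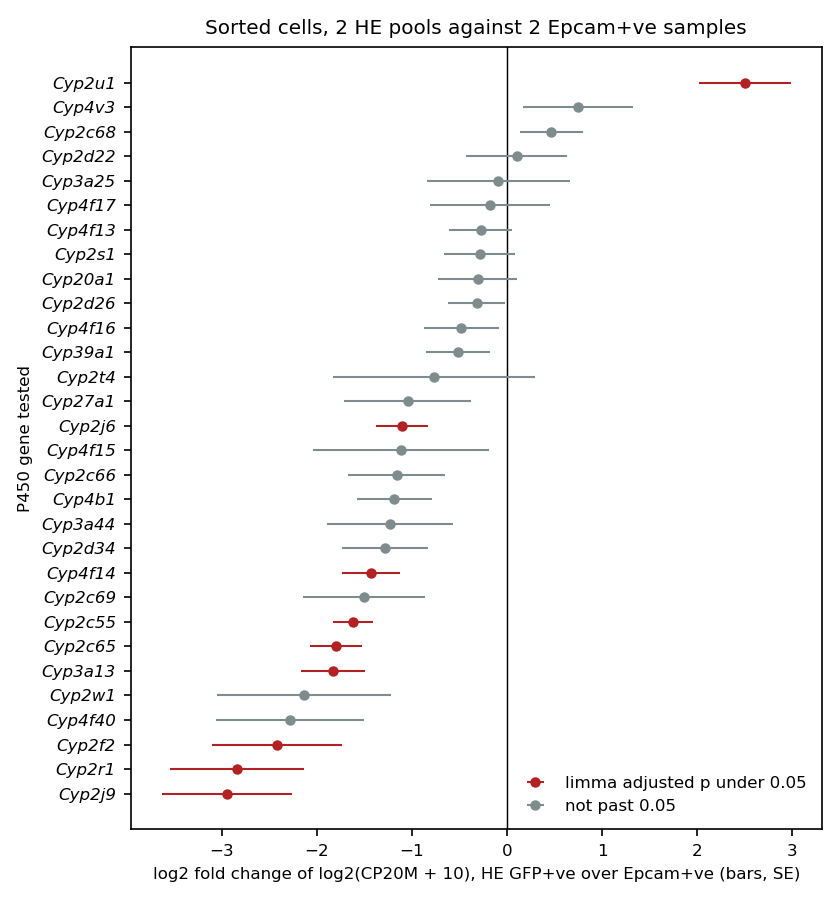
Points give the log2 fold change of HE pools against Epcam+ve/GFP-ve samples for the 30 P450 genes tested, with the limma SE as bars and genes at adjusted p < 0.05 marked. Cyp2u1 at 2.50 lies farthest to the right, and 26 of the 30 points lie left of 0.

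Of 13 partner genes of the P450 enzymes tested, limma at adjusted p < 0.05 found 2 higher and 3 lower in HE pools, where 12.5% of all genes were higher and 11.3% lower, and the pathway lists were counted by the same rule. Por, the reductase that supplies electrons, read 1386 and 1192 CP20M in GFP-ve samples and 2164 and 2027 in HE pools, a log2 fold change of 0.70 ± 0.20 (limma adjusted p = 0.0355). Cyb5r3, the reductase of cytochrome b5, was higher by 1.68 ± 0.18 (limma adjusted p = 0.000703). The lower ones were Cyb5b (-1.03), Fdx1 (-1.17), a mitochondrial ferredoxin, and Hmox1 (-2.39), which breaks down heme. Hmox1 was near the detection limit, at 54 and 93 CP20M in GFP-ve samples and 0 and 14 in HE pools. Of 16 genes tested for nuclear receptors and the aryl hydrocarbon receptor pathway, 5 were lower and 0 higher, among them Hnf4a, a regulator of epithelial and hepatic genes, at -0.64 (limma adjusted p = 0.0251) and Nqo1, a quinone reductase, at -1.89 (limma adjusted p = 0.00757). For the enzymes and exporters of glucuronidation and glutathione conjugation, 10 of 14 were lower and 1, Gstt1, was higher. Of the 6 epoxide and eicosanoid genes 4 were lower, including the soluble epoxide hydrolase Ephx2 at -1.75. Aldh1a1, which makes retinoic acid, was at -1.77 on the log2 scale (limma adjusted p = 0.0126).

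Loss of Olfr78 in GFP+ve cells was compared over 2 KO pools against 2 HE pools, for the 16 P450 genes above 40 CP20M in all 4 pools. No P450 gene was called by limma at adjusted p < 0.05, where 0% of the 11892 genes tested were called. edgeR and DESeq2 called 0 of the 16, and 1 had an unadjusted p < 0.05 in limma, as did 4.23% of all genes. The median log2 fold change was -0.08, against -0.18 over all genes. By the criterion of the study's methods, a difference of means beyond 2 average SDs and a ratio beyond 1.5, Cyp2c68 was higher and Cyp2u1 and Cyp2d26 were lower. That criterion took 3.23% of all genes as higher and 9.99% as lower, and comes without a p-value or any correction for the many genes compared, so it stands here as a description.

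Cyp2c68 (chromosome 19, 39688834 to 39741054, minus strand) read 392 and 494 CP20M in HE pools and 977 and 1209 in KO pools. Both KO pools were above both HE pools, with means of 443 ± 72.1 and 1093 ± 164 (SD, n = 2 each), a ratio of 2.47. The fitted change was 1.29 ± 0.38 on the log2 scale with a limma adjusted p of 0.931, and its share of windows in common with other genes applies here. Cyp2u1, the gene that was higher in HE pools than in GFP-ve cells, read 392 and 307 in HE pools and 188 and 128 in KO pools. Its KO mean was 2.21-fold lower (-1.11 ± 0.52 on the log2 scale, limma adjusted p = 0.931), and both KO pools read above the GFP-ve samples in CP20M. These values are few reads, 5 in KO pool 1 and 11 in KO pool 2, against 6 and 5 in the GFP-ve samples. Cyp2d26, a member of the chromosome 15 cluster, read 357 and 401 against 151 and 314, and just met the criterion. It missed the criterion after median-of-ratios rescaling, which moved the median of all genes from -0.18 to -0.02, while Cyp2c68 and Cyp2u1 met it. Without KO pool 1, where Cyp2d26 had 4 reads, its fitted change was -0.26. The enteroendocrine markers summed to 356676 and 606193 in KO pools, below both HE pools, and the colonocyte markers to 32441 and 97064. Whether these moved Cyp2u1 was not tested.

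The KO pools differed in Cyp2c55, with 1577 CP20M in the shallow pool 1 and 15838 in pool 2, on either side of the HE pools at 11829 and 8388. Cyp4b1 read 150 and 227 in HE pools and 376 and 152 in KO pools, so the groups overlapped (0.36 ± 0.61 on the log2 scale, limma adjusted p = 0.955), and the sign turned to -0.27 without KO pool 1, where 376 CP20M is 10 reads. Cyp2s1 stood at 1232 and 547 in HE pools and 751 and 930 in KO pools. Differences between KO pools were larger than those between the groups for Cyp2c55, Cyp4b1 and Cyp2s1.

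In crypts of the Olfr78-GFP line the loss of Olfr78 went with lower Cyp4b1, Cyp2d26, Cyp4f14, Cyp2f2 and Cyp2c66 and with higher Cyp2d34 and Cyp2d12. Of 32 P450 genes tested, limma called these 7 at adjusted p of at most 0.2 and a change beyond 1.5-fold. The 5 lower ones compare with 1.53% of all 15975 genes called lower, and the 2 higher ones with 7.95% called higher. The median log2 fold change was -0.11, against 0.03 over all genes. Values of 8 P450 genes were lower in all 5 KO mice than in both WT mice and those of 3 were higher, where 13.1% of all genes were lower and 18.2% higher. An unadjusted p < 0.05 in limma was reached by 12 of the 32, and by 25.9% of all genes. edgeR called 8 lower and 2 higher, against 2.08% and 8.19% of all genes. DESeq2 called 6 lower and 2 higher, against 1.56% and 6.51%.

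Cyp4b1 read 1287 and 1388 CP20M in the WT mice and 503, 596, 553, 599 and 732 in the KO mice. All KO crypts were below both WT crypts. The mean was 1338 ± 71.4 (SD, n = 2) in WT and 597 ± 85.2 (SD, n = 5) in KO crypts, 2.24-fold lower, a log2 fold change of -1.16 ± 0.13 with a limma adjusted p of 0.00125. The call was kept in all 16 alternatives, with an adjusted p of at most 0.0616. Cyp4f14 read 2144 and 2094 in WT crypts and 1290, 1205, 1222, 1547 and 1827 in KO crypts. It was 1.49-fold lower on the CP20M scale without overlap (-0.59 ± 0.15, limma adjusted p = 0.0325), so close to the fold limit that 6 of 16 alternatives lost the call. The other CYP4 gene among the most abundant, Cyp4f40, read 1076 and 1089 against 975, 927, 1037, 1066 and 1164, and overlapped.

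Of the Cyp2d cluster on chromosome 15, 1 gene was called lower and 2 higher. Cyp2d26 (82790101 to 82794294, minus strand) read 696 and 940 CP20M in WT mice and 241, 315, 318, 362 and 517 in KO mice. Cyp2d34 (82615965 to 82620946, minus strand) read 951 and 811 in WT mice and 1210, 1782, 1770, 2435 and 2753 in KO mice. Cyp2d12 (82555072 to 82560403, plus strand) read 182 and 123 against 210, 457, 316, 571 and 351. None of the 3 overlapped between genotypes. Cyp2d26 was 2.33-fold lower (-1.23 ± 0.23, limma adjusted p = 0.011) and kept its call in all 16 alternatives. Cyp2d34 was 2.26-fold higher (1.11 ± 0.24, limma adjusted p = 0.0178) and Cyp2d12 2.50-fold higher (1.22 ± 0.29, limma adjusted p = 0.0305). Both calls were lost without WT mouse 2, at adjusted p of 0.206 and 0.302. Shared windows were few, 1.17% for Cyp2d12, 0.375% for Cyp2d26 and 0 for Cyp2d34. The rest of the cluster that was tested was not called: Cyp2d10 at +0.41, Cyp2d9 at +0.13 and Cyp2d22 at +0.07 on the log2 scale. Cyp2d9 read 94 and 120 in WT mice and 89, 111, 105, 155 and 136 in KO mice, and overlapped.

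Among the lower and less abundant genes, Cyp2f2 read 96 and 114 CP20M in WT mice and 58, 75, 50, 76 and 66 in KO mice (-0.63 ± 0.22, limma adjusted p = 0.102). Cyp2c66, of the Cyp2c cluster, read 168 and 227 against 81, 153, 133, 159 and 120 (-0.59 ± 0.24, limma adjusted p = 0.142). KO values were lower than both WT values for each, and each kept its call in 10 of 16 alternatives. The abundant Cyp2c55 read 56843 and 55408 in WT mice and 36418, 42220, 38827, 50233 and 46424 in KO mice. It too was lower in all 5 KO mice, by 0.40 ± 0.13 on the log2 scale (limma adjusted p = 0.0871), which is 1.31-fold and below the fold limit. Cyp2j6 read 1287 and 1639 against 989, 927, 938, 1013 and 1046, a change of -0.56 ± 0.11 with a limma adjusted p of 0.0136 that also fell short of 1.5-fold on this scale. Cyp2c65 read 5220 and 5683 in WT mice and 2961, 3557, 3820, 4797 and 4452 in KO mice, a change of -0.49 (limma adjusted p = 0.0684). Cyp27a1, the mitochondrial sterol hydroxylase of bile acid synthesis, read 171 and 202 against 213, 298, 254, 350 and 297, a change of +0.56 (limma adjusted p = 0.0796). Neither gene overlapped between genotypes, and neither change was beyond the limit. Cyp3a13 read 2485 and 3191 in WT crypts and 1387, 1662, 1486, 2152 and 3687 in KO crypts. Cyp2s1 read 1604 and 1748 against 1431, 1406, 1564, 1837 and 1802. The groups overlapped for both.

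**Figure D4:**
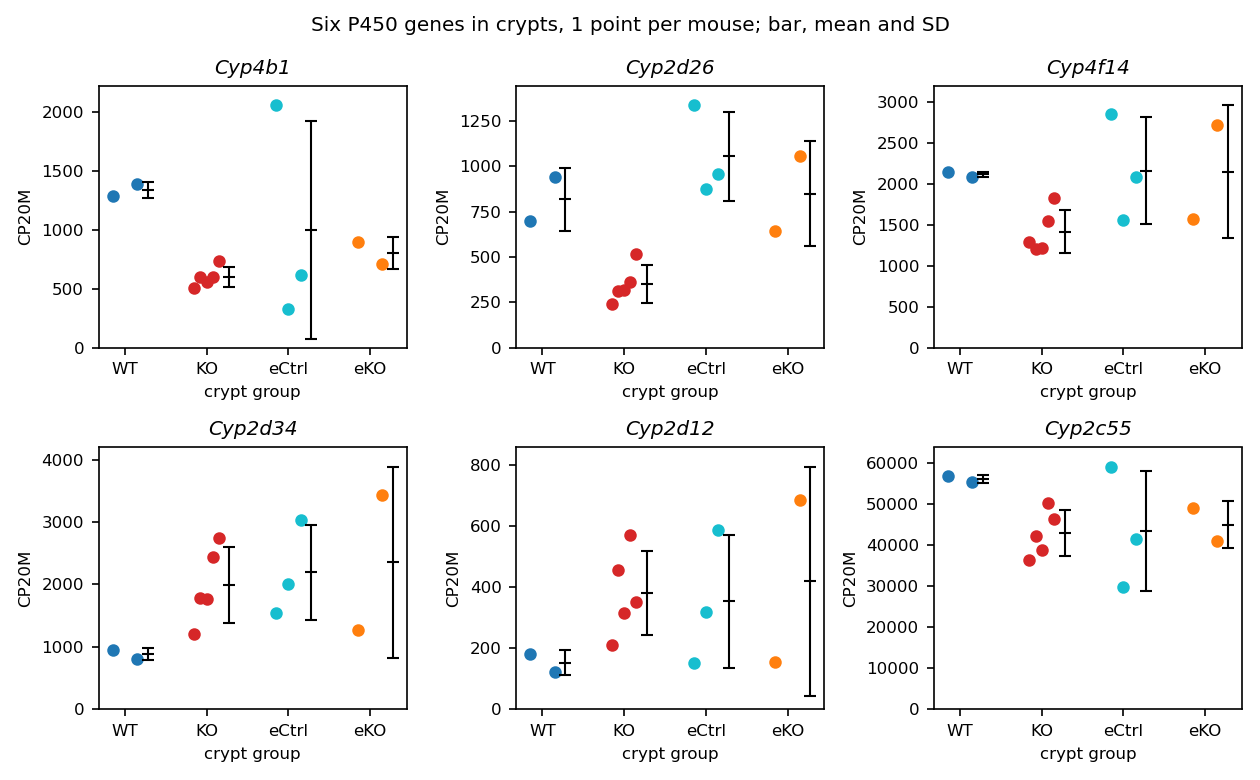
Each panel plots CP20M per crypt library for Cyp4b1, Cyp2d26, Cyp4f14, Cyp2d34, Cyp2d12 and Cyp2c55, with points for mice and mean ± SD per group. KO points lie below both WT points for Cyp4b1, Cyp2d26, Cyp4f14 and Cyp2c55 and above them for Cyp2d34 and Cyp2d12, while eControl and eKO points overlap in every panel.

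Without KO crypt mouse 1, the call of Cyp4b1 stood at -1.10 (limma adjusted p = 0.00115), that of Cyp2d26 at -1.11 (0.00939), that of Cyp2d34 at 1.28 (0.00277) and that of Cyp2d12 at 1.40 (0.00685). The calls of Cyp4f14, at -0.57, and Cyp2c66, at -0.45, ended because the change fell under 1.5-fold. Colonocyte markers summed to 207677 and 219428 CP20M in WT crypts and 168434 to 201082 in KO crypts, without overlap. That sum was mostly Car1, at 105749 and 111936 against 69591 to 83771, while 4 of the 7 markers were above 0 on the log2 scale, with a median of 0.00, and Car4, at 4586 and 3909 against 4709 to 6786, was higher in all 5 KO mice. The 4 general epithelial markers (Epcam, Cdh1, Krt8, Vil1) summed to 81436 and 84555 in WT crypts and 69877 to 80122 in KO crypts, without overlap. Of these 4 genes, 3 were below 0 on the log2 scale and 1 above, and 0 were called. The 4 stem and crypt base markers summed to 1976 and 2128 against 1397 to 1749 and the 4 smooth muscle markers to 454 and 488 against 546 to 878, each without overlap. Leukocyte markers (Ptprc, Cd3e, Cd52, Cd74, Lyz2, Cd79a) summed to 733 and 879 against 343 to 628, also without overlap, and fibroblast markers to 950 and 2504 against 473 to 1498. The part of these differences in the P450 calls was not tested.

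Among the partner genes in these crypts, 1 of 13 was called, Hmox1, higher by 0.70 (limma adjusted p = 0.177). The same rule called 7.95% of all 15975 genes higher and 1.53% lower, and these shares apply to each list below. Por was at -0.05 and not called. Cyb5a, Pgrmc1, a heme-binding partner, and Alas1, the rate-limiting enzyme of heme synthesis, changed by -0.51, -0.49 and -0.42, with limma adjusted p of 0.0186, 0.0132 and 0.0244 but below the fold limit. Of 16 receptor pathway genes 1 was called, Nqo1, lower by 0.73 ± 0.14 on the log2 scale (limma adjusted p = 0.0132). Tbxas1, the P450 that makes thromboxane but is named otherwise, was called higher by 1.60 ± 0.31 (limma adjusted p = 0.0132), and Cyp51, of cholesterol synthesis, was at +0.01. In the glucuronidation and glutathione list 14 of 15 genes were below 0, with a median of -0.39, and 1 was called, Gsta3 at -0.70 (limma adjusted p = 0.0789). None of the 6 retinoid or 6 epoxide and eicosanoid genes tested was called.

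In crypts of the floxed line, 0 of the 32 P450 genes tested were called by limma, where 0% of 15401 genes were called higher and 0% lower. An unadjusted p < 0.05 was reached by 1 of the 32, and by 0.825% of all genes, and edgeR and DESeq2 called 0. The median log2 fold change was 0.10, against 0.03 over all genes. Cyp4b1 read 2056, 329 and 616 CP20M in eControl mice and 897 and 708 in eKO mice. The single eControl mouse at 2056 was above, and the other two were below, both eKO values, and the fitted change of 0.09 had a sign that turned to -0.36 in edgeR and -0.37 in DESeq2. Cyp2d26 read 1337, 873 and 959 against 644 and 1056 (-0.33), and Cyp2d34 1540, 2007 and 3031 against 1273 and 3438. These groups overlapped. Cyp2d9 read 258, 198 and 254 in eControl mice and 218 and 517 in eKO mice. Cyp3a13 read 3176, 2725 and 3599 against 1260 and 3695, and Cyp4f40 1329, 1080 and 1153 against 1194 and 1554. For each of these the higher eKO value was above all 3 eControl values and the lower one was not, so the groups overlapped. Cyp2s1, the gene with the smallest p, read 2246, 2254 and 2788 in eControl mice and 2962 and 3999 in eKO mice. Both eKO values were above all eControl values, with a change of 0.51 ± 0.19 and a limma adjusted p of 1. Without the library labelled eKO mouse 2, 0 genes of the family were called, Cyp2s1 was at 0.29, Cyp2d26 at -0.68 and Cyp4b1 at 0.26, with 1 eKO library assumed to vary like the controls.

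With both lines in 1 fit and the line as a covariate, limma called 0 of 33 P450 genes, against 0.00608% of 16447 genes higher and 0.0182% lower. Unadjusted p were below 0.05 for 4 of the 33 and for 7.7% of all genes, edgeR called 0 and DESeq2 called 1, Cyp2d26. Its fitted change was -0.82 (limma adjusted p = 0.501), followed by p-value by Cyp4f15, a fatty acid hydroxylase, at -1.12, Cyp27a1 at 0.34, Cyp2c66 at -0.47 and Cyp2d34 at 0.60. Cyp4b1 stood at -0.59 (limma adjusted p = 0.676). Cyp4f15 read 22 and 66 CP20M in WT mice and 12, 0, 15, 5 and 25 in KO mice, which overlapped, and 60, 28 and 24 in eControl against 11 and 19 in eKO mice, which did not. In the floxed line Cyp27a1 read 238, 235 and 289 against 256 and 281, and Cyp2c66 326, 141 and 202 against 154 and 182, both with overlap. Without the library labelled eKO mouse 2 Cyp2d26 alone was called, at -1.04 (limma adjusted p = 0.118), and without eKO mouse 1 the 4 called were Cyp2d26, Cyp4f15, Cyp2d34 and Cyp2d12.

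Whether the genotype acted differently in the 2 lines was tested with an interaction term. By limma 0 of 33 P450 genes passed adjusted p < 0.05, where 0.0122% of all genes did, and 0 passed by edgeR or DESeq2. An unadjusted p < 0.05 was reached by 3 of the 33, and by 8.77% of all genes. The effect in the floxed line minus that in the Olfr78-GFP line was 1.25 ± 0.66 for Cyp4b1 (limma adjusted p = 0.569), 0.90 for Cyp2d26 (0.557) and -1.12 for Cyp2d34 (0.562). Leaving out each library in turn, the library labelled eKO mouse 2 included, gave differences of 0.67 to 1.97 for Cyp4b1. The ranges were 0.55 to 1.25 for Cyp2d26 and -1.84 to -0.41 for Cyp2d34. Without eControl mouse 1, whose Cyp4b1 value of 2056 CP20M was the highest of all crypts, the difference for Cyp4b1 was 1.97 with a limma adjusted p of 0.0374. The calls made in the Olfr78-GFP line were therefore not shown to be particular to that line. The lines were deposited in separate tables, and they differ in where Olfr78 is lost, in every tissue or in the epithelium alone. Line, table, genetic background and the tissues of the loss cannot be told apart.

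**Figure D5:**
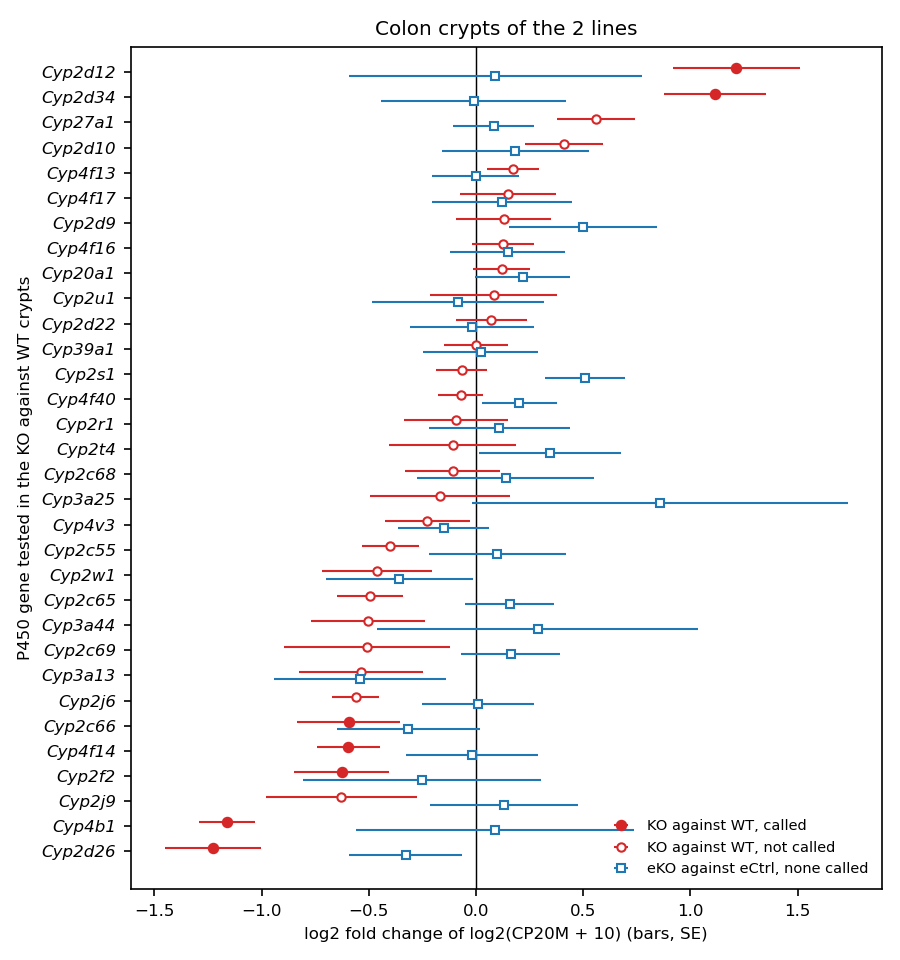
Log2 fold changes with limma SE bars for P450 genes in crypts, KO against WT in the Olfr78-GFP line and eKO against eControl in the floxed line. Cyp4b1 (-1.16) and Cyp2d26 (-1.23) lie lowest and Cyp2d34 (1.11) and Cyp2d12 (1.22) highest in the Olfr78-GFP line, and in the floxed line, with 5 libraries, the bars of most genes cross 0.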

How the data were processed

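RNA of crypts and sorted cells was sequenced in paired-end libraries, mapped to GRCm38 with STAR and counted per gene with HTSeq on the Ensembl annotation, per the study's methods. The authors deposited a table for the Olfr78-GFP line, crypts and sorted cells together, and a table for the floxed line. In both, the authors scaled each library to 20000000 reads and rounded up (CP20M). The deposited values of the sorted cells are a signal from which whole reads were recovered, 99.90 to 99.995% of values equalling a whole number of reads exactly once scaled and rounded up. The crypt values, deposited by the authors in the same CP20M unit, are a normalized score and not counts, and reads were recovered from them in the same way (lowest library 99.84%). Strand-specific counting is not given in the sources used here. No column was left out (0).

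Groups follow the titles. Genes with at least 40 CP20M in at least 2 libraries compared (above 40 in all 4 pools for KO against HE) were tested with limma 3.58.1 in R 4.3.3, with a trend of the spread, on log2(CP20M + 10), which understates the change of low genes. Benjamini-Hochberg adjustment ran over all genes tested, and fold limits apply to this scale. Reads recovered from the scaled values were tested with edgeR 4.0.16 (quasi-likelihood) and DESeq2 1.42.0 as alternatives, beside pseudocounts of 1 and 40, other filters, rescaling, a replicate block and the leaving out of each library. The scripts were tested on simulated counts. Gene lists, members and tests were chosen with earlier results of these data known. Values per library are given, in the comparison that named them, for Cyp4b1, for P450 genes called or past the criterion, for the highest in control crypts (8) and HE pools (5), and for the 5 with the smallest p in each crypt comparison. Other P450 genes are named with a value inside their group. Shared windows are stretches of 100 exon bases that also occur in another gene's transcripts. Floors of 3 reads and depth cover counting error only. A result of the retinoid list is not reported here.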

Additional observations from a re-analysis of the deposited data

How the results depend on the processing

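Over 42 results for named P450 genes, 625 of 682 alternative values kept their direction and their side of the threshold, 34 kept only the direction and missed the threshold, 12 passed it newly and 11 changed sign. Of 121 alternative counts, 15 moved by over 1.5 times. The 9 genes at adjusted p < 0.05 between HE and GFP-ve cells became 5 with DESeq2, 2 with all 6 sorted libraries in 1 fit, and 4 to 12 when a library was left out, with 4 without GFP-ve sample 1 and 5 without sample 2. The stricter count of 0 ranged from 0 to 3, with Cyp3a13, Cyp2c65 and Cyp4f40 called without HE pool 1. For KO against HE pools, leaving out a library gave 0 to 1, Cyp2c55 being called without KO pool 2, where the KO arm is pool 1 alone, with 532702 reads, and is assumed to vary like the HE pools, and the criterion's 3 genes became 7 with no filter. For KO against WT crypts the 7 became 4 with a pseudocount of 40 and 3 to 8 without a library, 3 without WT mouse 2. For both lines the 0 became 1 with DESeq2 and 0 to 4 without a library, and for the difference between lines 0 to 1, without eControl mouse 1. The eKO count was 0 in all 14 alternatives. The causes were not tested.

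The replicate numbers of the titles gave no sign of pairing in the Olfr78-GFP line. Correlations of same-numbered deviations there were 0.03 for HE and GFP-ve samples, -0.16 for KO and HE pools, and 0.06 and -0.10 for KO and WT crypts. For eKO and eControl crypts they were higher, at 0.59 and 0.36, and 2 pairs are too few to decide whether those samples were paired. With the replicate block, the counts were 10 for HE against GFP-ve cells, 0 for KO against HE pools and 11 for KO against WT crypts, which added Cyp3a13, Cyp2j6, Cyp3a44, Cyp2c65 and Cyp2c69 and lost Cyp2f2. Crossed numbers of the KO and HE pools, tried after seeing the data, gave 1 call among the P450 genes and 85 in all.

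Signs that turned belonged to uncalled changes. Cyp4b1 between eKO and eControl crypts, 0.09 by limma, was -0.36 in edgeR, -0.37 in DESeq2, -0.053 with the replicate block and -0.49 to 0.81 without a library. On leaving out a library, Cyp2d26 ranged there from -0.68 to 0.024, Cyp3a13 from -1.31 to 0.23 and Cyp2d9 from -0.10 to 1.10. Cyp2s1 between HE and GFP-ve cells ranged from -0.86 to 0.29, and Cyp4b1 between KO and HE pools from -0.27 to 0.99. The criterion for KO against HE needs 2 libraries per group and has no value without one of them. With 2 libraries per sorted group, and 37.5 CP20M per read in KO pool 1, genes near 40 CP20M rest on few reads.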
